A study of Mus musculus with 8 samples.

Results

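H3K27me3 peaks were examined at the Ink4a/Arf locus (Cdkn2a with its neighbour Cdkn2b) and at Cdkn1a, the genes of the best known inhibitors of cyclin-dependent kinases. The members were all peaks that overlapped a window of 47 kb of chromosome 4, from 88.9 to 89.0 Mb, holding Cdkn2a and Cdkn2b, or a window of 21 kb of chromosome 17, at 29.2 Mb, assigned to Cdkn1a, by at least 1 bp. Positions are those of the deposited lists, on mouse build mm9. There were 4 such peaks among 208616 in the 5 lists. The first window held 0 of them. All 4 lay in the second, as 1 peak each in AstroEGFR 1, PT 1, PT 3 and PT 4, and AstroEGFR 3 had none.

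AstroEGFR cells (libraries 1 and 3) were astrocytes from the cerebral cortex of C57BL/6 mice at postnatal day 5, labelled as knockout for p16 and p19, the 2 products of Cdkn2a, and infected with a retrovirus carrying EGFRvIII, a truncated human EGF receptor that signals without ligand. PT cells (libraries 1, 3 and 4) were glioma propagating cells grown out of tumours that formed after such astrocytes were injected into the brain of CD1 Nude mice. Both groups therefore shared the Ink4a/Arf knockout and the EGFRvIII vector, and both had been kept for fewer than 10 passages. An AstroEGFR number names a batch of astrocytes. According to the study's methods astrocytes grew in serum and propagating cells in serum-free medium with growth factors on laminin, so stage and culture medium cannot be told apart. Peak lists of a repressive mark hold no measure of cell type markers, and the labelled cell types were not checked.

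Cdkn2a makes p16Ink4a, which blocks the kinases CDK4 and CDK6, and, from another first exon and reading frame, p19Arf, which protects p53 from MDM2. Cdkn2b makes p15Ink4b, a close relative of p16Ink4a, and Cdkn1a makes p21, a target of p53 that inhibits cyclin E and cyclin A kinases. In many proliferating cells Polycomb complexes coat the Ink4a/Arf locus with H3K27me3, the trimethylation of histone H3 lysine 27 placed by EZH2 or EZH1, and loss of the mark accompanies senescence. H3K27me3 commonly settles on promoters rich in CG dinucleotides, and the proximal promoters are given here to show how the starts of the 3 genes differ in this respect.

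RefSeq sequences of build GRCm38.p6 were found for 3 of 3 genes. Each runs 5′ to 3′ on the strand of the gene, from 250 bases before to 50 bases after an annotated start, with each CG in capitals. The motif searched was CG, which reads the same on both strands. Where a gene has 2 listed starts, start 1 lies farther upstream; for Cdkn2a it is that of p19Arf and start 2 that of p16Ink4a.
Cdkn2a start 1: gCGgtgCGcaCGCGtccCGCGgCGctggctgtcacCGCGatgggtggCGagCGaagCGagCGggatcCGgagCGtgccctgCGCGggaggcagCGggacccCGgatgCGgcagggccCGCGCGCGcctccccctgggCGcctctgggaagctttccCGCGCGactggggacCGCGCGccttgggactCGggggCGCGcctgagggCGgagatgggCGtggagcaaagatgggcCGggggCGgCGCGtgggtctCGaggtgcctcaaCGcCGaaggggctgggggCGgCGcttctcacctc
Cdkn2a start 2: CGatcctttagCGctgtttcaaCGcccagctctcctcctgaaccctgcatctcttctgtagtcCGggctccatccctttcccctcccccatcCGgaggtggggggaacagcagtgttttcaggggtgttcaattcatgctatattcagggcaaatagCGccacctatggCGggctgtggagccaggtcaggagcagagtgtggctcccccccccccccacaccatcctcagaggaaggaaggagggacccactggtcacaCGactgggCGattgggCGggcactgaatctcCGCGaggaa
Cdkn2b start 1: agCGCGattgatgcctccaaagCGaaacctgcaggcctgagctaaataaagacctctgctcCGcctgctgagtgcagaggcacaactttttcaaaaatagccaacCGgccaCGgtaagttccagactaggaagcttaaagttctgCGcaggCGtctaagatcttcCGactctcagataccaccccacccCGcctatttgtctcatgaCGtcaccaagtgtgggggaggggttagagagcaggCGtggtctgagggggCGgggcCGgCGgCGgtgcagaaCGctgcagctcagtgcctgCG
Cdkn1a start 1: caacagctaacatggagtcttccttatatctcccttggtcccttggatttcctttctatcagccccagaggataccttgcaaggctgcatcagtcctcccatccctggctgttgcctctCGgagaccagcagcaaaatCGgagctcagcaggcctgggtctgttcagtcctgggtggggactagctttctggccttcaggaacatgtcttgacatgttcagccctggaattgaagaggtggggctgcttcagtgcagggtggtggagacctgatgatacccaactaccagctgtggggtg
Cdkn1a start 2: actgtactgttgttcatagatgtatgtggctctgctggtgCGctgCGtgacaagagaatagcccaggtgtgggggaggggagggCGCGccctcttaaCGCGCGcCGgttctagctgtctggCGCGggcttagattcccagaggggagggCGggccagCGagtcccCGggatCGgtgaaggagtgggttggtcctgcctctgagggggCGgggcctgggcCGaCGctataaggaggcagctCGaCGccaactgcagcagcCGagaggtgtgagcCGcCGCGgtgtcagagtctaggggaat

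The p19Arf promoter held 45 CG and was 77.0% G or C, and only 1.93% of 32851 RefSeq promoters of 300 bases had as many. The p16Ink4a promoter held 12 CG, a number reached by 39.6% of promoters, and that of Cdkn2b held 18, reached by 29.7%. At Cdkn1a, start 2 held 23 CG, reached by 21.5% of promoters, whereas start 1 held 2. The median promoter had 7. The coordinates of these starts on mm9 were not used here, so no peak was placed on or off a promoter.

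The 5 lists differed in length, from 3722 peaks in AstroEGFR 3 to 66279 in PT 4, and in the share of the chromosomes they covered, from 0.129% in AstroEGFR 3 to 3.33% in PT 1. AstroEGFR 3 and PT 3 contained no peaks on unplaced sequences, while AstroEGFR 1, PT 1 and PT 4 contained 179 to 236. This feature crosses the groups, and the lists without such peaks are also those numbered 3. The labels do not say where it comes from, and its cause was not tested. Results are therefore also given without AstroEGFR 3 and within these 2 sets of lists. How many reads each list rests on is unknown, and a stretch without a peak is one that did not pass the authors' threshold.

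At the Ink4a/Arf locus no list held a peak. The covered length was 0 bp in AstroEGFR 1, AstroEGFR 3, PT 1, PT 3 and PT 4, and so was that of the 200 kb on either side. With 0 bp in each list there was nothing for a test between the groups to compare. Most stretches of this length had none either. When chromosomes 1 to 19 and X were divided into tiles of 47 kb, a peak was present in 16.5% and 4.08% of tiles in AstroEGFR 1 and 3 and in 24.3%, 21.6% and 25.3% in PT 1, 3 and 4. No list had a peak in 65.3% of tiles, or in 70.2% of those on chromosome 4. Of tiles as long as the window with both flanks (447 kb), 29.8% had no peak in any list, and of those on chromosome 4 the share was 31.5%. Tiles without mappable sequence were not removed.

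In the knockout, bases that the allele lacks give no reads. Which bases these are is not given in the sources used here, so within the deleted part a lack of DNA and a lack of the mark cannot be told apart. Cdkn2b is not named in the knockout label. The stretch without peaks was far longer than the window. From the last peak below the locus to the first above it, it measured 4.99 and 12.1 Mb in AstroEGFR 1 and 3. In PT 1, 3 and 4 it measured 7.86, 2.53 and 2.47 Mb. A stretch of 2.46 Mb, from 88584238 to 91041147, was free of peaks in all 5 lists.

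Stretches of this length were found elsewhere too. Among the autosomal stretches between peaks of the merged lists, this one ranked 81 of 98926. Stretches at least as long took up 11.9% of the autosomal span, and chromosome 4 had 10 of them. The peaks around the locus were uneven on its 2 sides in 4 of the lists. The share of other positions with such a contrast was not computed, so it is not read as a trait of this locus. Below the window, within 5 Mb there were 181 in AstroEGFR 1 and 145, 50 and 158 in PT 1, 3 and 4, but 1 in AstroEGFR 3. Within 5 Mb above it there were 1 in AstroEGFR 1, 0, 1 and 2 in the PT lists in the same order, and 0 in AstroEGFR 3.

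**Figure D1:**
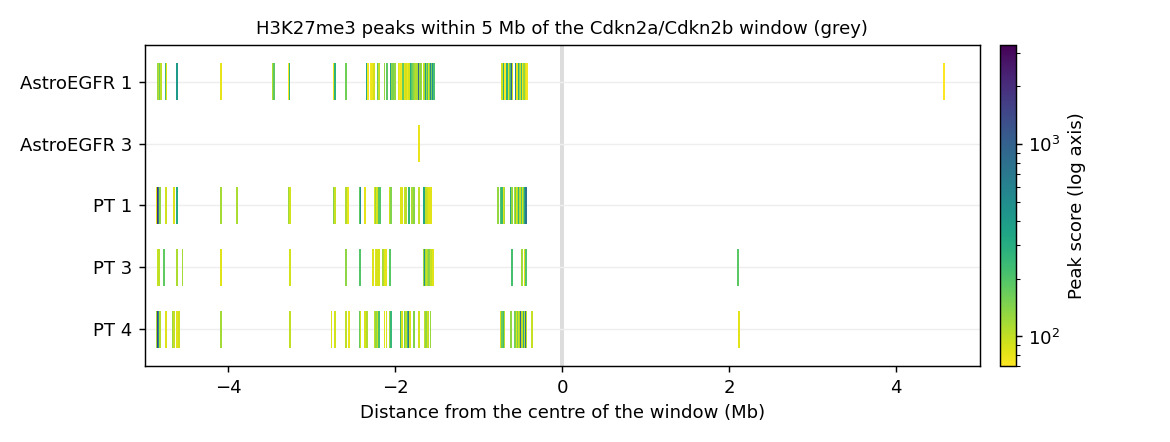
H3K27me3 peaks of the 5 lists within 5 Mb of the centre of the Cdkn2a/Cdkn2b window. The x axis is the distance in Mb, each row is a library, each bar a peak (narrow peaks are widened so that they can be seen), colour is the peak score on a log scale and the grey band is the window. No bar touches the band, 4 lists have many peaks on the lower side, and at most 2 peaks stand on the upper side.

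The peak nearest to the locus lay outside the 200 kb limit in each list. On the lower side it was 397 kb away in AstroEGFR 1, 406 kb in PT 1, 406 kb in PT 3 and 331 kb in PT 4, and 1.69 Mb away in AstroEGFR 3. The 4 nearer peaks differed in score: that of AstroEGFR 1 scored 74.81, that of PT 4 99.26 and that of PT 3 197. They did not all lie at the same site, and scores of different lists depend on unknown depth. The PT 1 peak scored 737 and spanned 3281 bp from 88505550 to 88508830. On the upper side the distance was 2.08 Mb in PT 3 and 2.09 Mb in PT 4, and 4.55, 7.41 and 10.4 Mb in AstroEGFR 1, PT 1 and AstroEGFR 3. In the RefSeq order of protein-coding genes (GRCm38.p6) Mtap comes before Cdkn2a, and Dmrta1 follows Cdkn2b; no peak was assigned to either gene.

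In the Cdkn1a window 3 lists shared a broad peak with a score of 3100, and the other 2 lists differed. The value 3100 recurred in every list and few peaks exceeded it. It was treated as a cap, so equal scores of 3100 need not mean equal strength. AstroEGFR 1 had a peak of 8244 bp (29238165 to 29246408), PT 1 one of 7912 bp (29238333 to 29246244) and PT 4 one of 7832 bp (29238424 to 29246255), each with this score. Their starts fell within 259 bp of each other and their ends within 164 bp, so that 94.9% of the outer extent was common to the 3. PT 3 had a peak of 423 bp (29240747 to 29241169) with a score of 111, inside the extent of the others and 2323 bp above its common start. AstroEGFR 3 had no peak within 60.1 kb above or 195 kb below the window.

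The broad peak was strong and wide within each of its lists. A score of 3100 or more was given to 0.57% of peaks in AstroEGFR 1, 1.82% in PT 1 and 1.63% in PT 4, and only 0.794%, 1.22% and 1.01% of peaks, respectively, were at least as wide. The narrow peak of PT 3 stood near the middle of its list by score, at percentile 51.4, and only 0.0224% of PT 3 peaks were no wider. A score of 3100 or more was given to 0.229% of peaks in PT 3 and 0.618% in AstroEGFR 3, so such peaks were present in both lists.

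**Figure D2:**
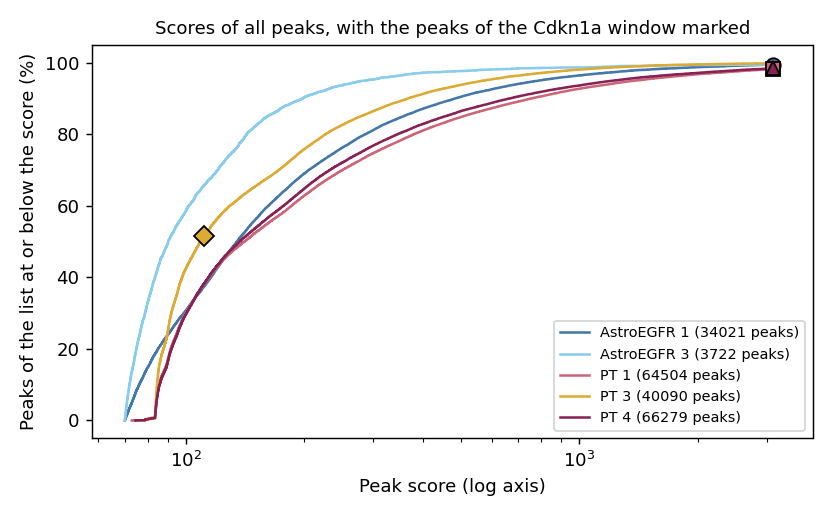
Cumulative distribution of peak scores in each list, with the peak of the Cdkn1a window marked. The x axis is the score on a log axis, the y axis the percentage of peaks in the list, and each symbol is the window's peak in AstroEGFR 1 (circle), PT 1 (square), PT 3 (diamond) or PT 4 (triangle), placed at the percentage of peaks with a lower score. The peaks of AstroEGFR 1, PT 1 and PT 4 sit at the top of their curves at 3100, that of PT 3 lies mid-curve at 111, and AstroEGFR 3 has no symbol.

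This combination was seen elsewhere too. Of the 194 AstroEGFR 1 peaks with a score of 3100 or more, 159 (82.0%) overlapped such a peak in both PT 1 and PT 4. Of these 159, which include the one in the Cdkn1a window, 67 (42.1%) had no peak in AstroEGFR 3. A PT 3 peak was present in 142 (89.3%), with a median best score of 1691. A PT 3 score no higher than in the Cdkn1a window, or no PT 3 peak, was found in 24 (15.1%), and 23 (14.5%) also had no AstroEGFR 3 peak.

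Within the Cdkn1a window, peaks covered 4836 and 0 bp in AstroEGFR 1 and 3. In PT 1, 3 and 4 they covered 4668, 423 and 4577 bp. The highest value was that of an astrocyte library, the lowest that of the other, and the groups overlapped. The mean was 2418 ± 3419.6 bp (SD, n = 2) in AstroEGFR and 3223 ± 2425 bp (SD, n = 3) in PT. The difference of 805 bp was reached under 7 of the 10 assignments of the 5 lists to groups of 2 and 3 (exact permutation test, two-sided, p = 0.7; adjusted p = 1 over 8 comparisons; the smallest p this design allows is 0.1). Without AstroEGFR 3 the sign turned, to -1613 bp, without AstroEGFR 1 it was 3223 bp, and among AstroEGFR 1, PT 1 and PT 4 it was -213.5 bp. Between AstroEGFR 3 and PT 3 it was 423 bp, and with the window widened by 10 kb on each side, over all lists, 2136 bp.

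For comparison, a peak was present in 10.7% and 2.16% of tiles of 21 kb in AstroEGFR 1 and 3 and in 16.7%, 13.9% and 17.3% in PT 1, 3 and 4. A covered length as large as that of the window was found in 2.68% of tiles in AstroEGFR 1, 5.2% in PT 1 and 4.95% in PT 4, and in 13.6% in PT 3. A peak in these 4 lists and none in AstroEGFR 3 was found in 4.45% of tiles. Relative to the share of the chromosomes that each list covered, the window was covered 12.2 times as much in AstroEGFR 1, 6.68 times in PT 1, 1.36 times in PT 3 and 6.81 times in PT 4, and 0 times in AstroEGFR 3. The group means of this ratio were 6.09 ± 8.61 (SD, n = 2) and 4.95 ± 3.11 (SD, n = 3), and all 10 assignments reached the observed difference of -1.14 (exact permutation test, two-sided, p = 1). The difference rested on single lists: it was 4.95 without AstroEGFR 1, -7.23 without AstroEGFR 3 and 0.655 without PT 3. Among the lists with unplaced peaks it was -5.44 and among those without 1.36, and with the window widened by 10 kb on each side -0.173.

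The marked part of the window was its upper end. The first 16.2 kb had no peak in any list, 423 bp lay in peaks of 4 lists and 4154 bp in peaks of 3, and each broad peak ran on for 3408 bp (AstroEGFR 1), 3244 bp (PT 1) or 3255 bp (PT 4) beyond the upper edge. In the RefSeq order of protein-coding genes Srsf3 precedes Cdkn1a, and Rab44 and then Cpne5 follow it. Without gene positions on mm9 it was not determined whether the broad peak overlaps Cdkn1a, Rab44 or neither.

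**Figure D3:**
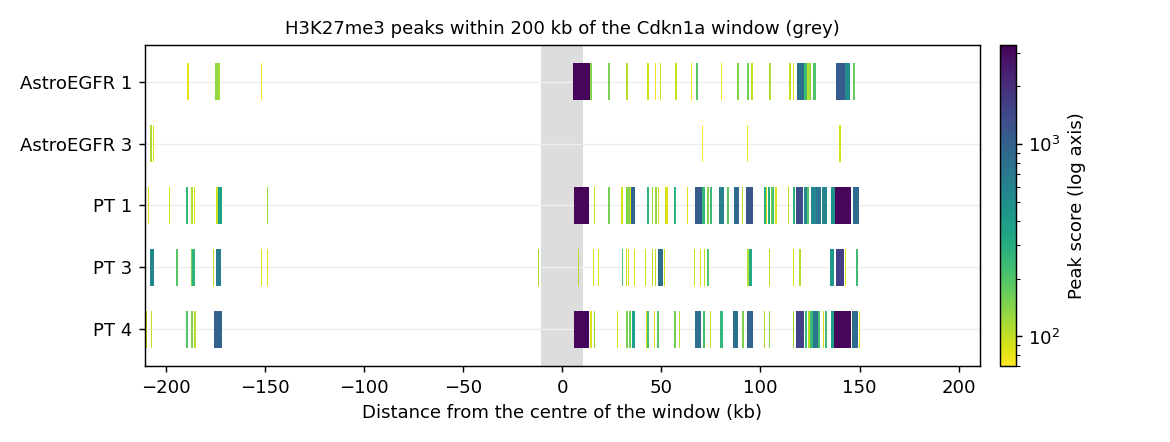
H3K27me3 peaks of the 5 lists over the Cdkn1a window and 200 kb on either side. The x axis is the distance in kb from the centre of the window (grey), each row is a library, each bar a peak (narrow peaks are widened so that they can be seen) and colour is the peak score on a log scale. The dark bar at the upper edge of the window appears in AstroEGFR 1, PT 1 and PT 4, PT 3 has a thin pale bar there, and most other peaks lie above the window.

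The neighbourhood of the Cdkn1a window held more peaks above the window than below it in each list, although in AstroEGFR 3 the sides were close. How often other stretches show such a contrast was not computed. The upper 200 kb held 24 and 3 peaks in AstroEGFR 1 and 3, against 4 and 2 in the lower 200 kb. In PT 1, 3 and 4 it held 41, 24 and 35, against 9, 9 and 6. The covered length of the upper flank, which includes the part of the broad peak beyond the edge, was 34551 and 1887 bp in AstroEGFR 1 and 3 and 65976, 24045 and 55117 bp in PT 1, 3 and 4. Set against the share of the chromosomes in each list, the upper flank was covered 9.14 and 7.32 times as much in AstroEGFR 1 and 3, and 9.92, 8.10 and 8.61 times as much in PT 1, 3 and 4. The lists thus resembled each other more in this ratio than in covered length. Covered lengths as large as that of the window with both flanks were found in 4.8% and 4.04% of tiles of 421 kb in AstroEGFR 1 and 3, and in 4.02%, 3.91% and 4.88% in PT 1, 3 and 4.

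In the lower flank peaks covered 3658 and 1653 bp in AstroEGFR 1 and 3, and 7585, 10224 and 7588 bp in PT 1, 3 and 4. Each PT value exceeded both AstroEGFR values, as in 14.6% of all tiles of 200 kb. Relative to the share of the chromosomes covered in each list, the order was different, at 0.968 and 6.41 times in AstroEGFR 1 and 3 and 1.14, 3.44 and 1.19 times in PT 1, 3 and 4. The peaks of this flank stood apart from the window: in the lists other than PT 3 the nearest was 138 kb (PT 1) to 195 kb (AstroEGFR 3) below it. PT 3 alone had a peak of 728 bp, with a score of 116, that ended 1001 bp below the window. On the upper side the nearest separate peak lay 3.72 kb from the window in AstroEGFR 1, and 5.42, 5.14 and 3.65 kb from it in PT 1, 3 and 4. Their scores were 144 in AstroEGFR 1, where the median of all peaks was 135, and 96.75, 89.4 and 85.74 in the PT lists, below the medians of 141, 109 and 137.

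**Figure D4:**
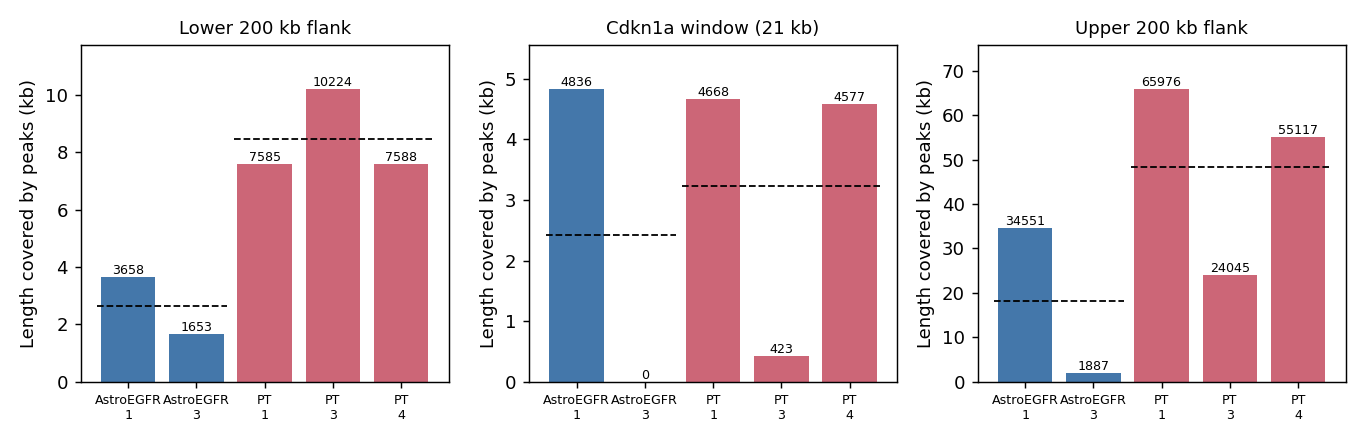
Length covered by peaks, in kb on the y axis, in the lower flank of 200 kb, the 21 kb window of Cdkn1a and the upper flank of 200 kb. Each bar is a library (blue AstroEGFR, red PT) with its covered bp printed above it, and dashed lines are group means. In the window AstroEGFR 1 (4836 bp) is as high as PT 1 and PT 4 and PT 3 is low (423 bp), whereas in the lower flank all 3 PT bars exceed both AstroEGFR bars.

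Both flanks together held 28 and 5 peaks in AstroEGFR 1 and 3, and 50, 33 and 41 in PT 1, 3 and 4. The PT lists had more than either AstroEGFR list, 41.3 ± 8.50 (SD, n = 3) against 16.5 ± 16.3 (SD, n = 2). No other assignment of the lists reached the difference of 24.8 peaks (exact permutation test, two-sided, p = 0.1, the smallest this design allows; adjusted p = 0.8 over 8 comparisons). A higher number in each PT than in each AstroEGFR list was found in 22.9% of all tiles of 421 kb. Per 10000 peaks of the list the direction turned: the flanks held 8.23 and 13.4 in AstroEGFR 1 and 3, and 7.75, 8.23 and 6.19 in PT 1, 3 and 4, a difference of -3.44 between the means of PT and AstroEGFR (exact permutation test, two-sided, p = 0.2). With each list reduced to its 3722 highest scoring peaks the flanking peaks differed by -1, and without AstroEGFR 3 by 13.3. Among the lists with peaks on unplaced sequences they differed by 17.5, and among those without by 28. The covered length of both flanks was 56845 ± 20290.9 bp (SD, n = 3) in PT and 20874.5 ± 24514.7 bp (SD, n = 2) in AstroEGFR, and 3 of the 10 assignments reached that difference of 35970.5 bp (exact permutation test, two-sided, p = 0.3). It was 18636 bp without AstroEGFR 3, 29924 bp among the lists with unplaced peaks and 30729 bp among those without, and 6103.5 bp with equal numbers of peaks. Relative to the share of the chromosomes covered, it turned as well, to -0.561 (exact permutation test, two-sided, p = 0.5).

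The peaks of the window and flanks merged into 53 regions, of which 17 were marked in 1 list only and 2 in all 5. The same shares over all regions of the series were not computed, so these counts are not read as a trait of this neighbourhood. AstroEGFR 3 had only 5 peaks here, which limits how many regions all 5 lists could share. Of the 2 regions marked in all 5 lists, the wider ran from 29367762 to 29378152, starting 125 kb above the window. It held the highest scoring flanking peak of each list but AstroEGFR 3, whose highest (114) lay in the lower flank from 29024565 to 29025494. Its best scores were 1108 and 91.53 in AstroEGFR 1 and 3, where peaks covered 6731 and 746 bp of it. In PT 1, 3 and 4 they were 3100, 1602 and 3100, with 9716, 7073 and 9911 bp covered. Here PT 3 scored higher than AstroEGFR 1, the opposite of the broad peak at the window. The other, picked out after its values were seen, ran from 29324979 to 29328688, with best scores of 164 and 76.74 in AstroEGFR 1 and 3 and of 1216, 322 and 973 in PT 1, 3 and 4. In these 2 regions each PT score exceeded both AstroEGFR scores, but how often other regions show this was not computed. Scores depend on the unknown depth of each library.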

How the data were processed

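H3K27me3 chromatin immunoprecipitation followed by sequencing had been performed on 2 AstroEGFR and 3 PT libraries. A further 3 input libraries were not analysed here. The authors made 1 peak list per library and deposited, for each peak, chromosome, start, end, name and a score; the submitters' processing notes name Bowtie 0.12.9, MACS 1.4.1 and mm9. The deposited score is the caller's own value, taken to grow with significance. The deposited starts were taken to count from 0 and are printed counting from 1. Peak numbering ran without gaps (0 missing numbers). Reads per library and the input used for each list are not given in the sources used here.

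Covered length is the number of window bases in peaks. Tiles of the window's length ran from the start of each of chromosomes 1 to 19 and X to the last peak in any list. Group means (PT minus AstroEGFR) were compared by an exact permutation test over the 10 possible assignments of the lists, adjusted over 8 comparisons by Benjamini-Hochberg. The 8 include those at the Cdkn2a/Cdkn2b window and its flanks, where no list held a peak. These could show no difference and made the adjustment stricter. The permutation test treats the lists as independent and exchangeable, although the paper relates tumours to astrocyte batches. All peaks of the windows are given, with the nearest and highest scoring peaks of the 200 kb flanks. The members, windows, lists of genes and tests were chosen with earlier results of these data known. Alternatives were score filters, equal numbers of peaks, other window and flank sizes, the peak centre, omitted libraries and a replicate block. Other cell cycle genes were not analysed, since gene positions on mm9 were not used here. Python 3.11.15, pandas 2.3.3, numpy 2.4.6 and matplotlib 3.10.9 were used. The functions for coverage and permutation were tested on simulated lists.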

Additional observations from a re-analysis of the deposited data

How the results depend on the processing

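At the Cdkn2a/Cdkn2b window and its flanks all 62 recomputed values were 0. The full lists held no peak there, so these settings could only return 0 and are no check of the result. At the Cdkn1a window 53 of 62 kept their direction or, for counts of lists with a peak, stayed within 1.5 times the reported count. Some of the 62 could not turn out otherwise, such as the count of lists after leaving 1 out, so the tally does not measure stability. The number of lists with a peak in the Cdkn1a window was 4, and 3 with equal numbers of peaks, where the PT 3 peak was lost. Values relative to the list and comparisons within sets of lists were added once the data had been seen. Within the lists without peaks on unplaced sequences, 1 of 2 had a peak, and the ratio to the list differed by 1.36. Within those with them, the covered length differed by -213.5 bp. With equal numbers of peaks the difference in flanking peaks was -1, per 10000 peaks of the list -3.44, and the covered share of the flanks over that of the span differed by -0.561. Leaving out each replicate in turn gave -1613 (without AstroEGFR 3) to 3223 bp (without AstroEGFR 1) for covered length, -7.23 (without AstroEGFR 3) to 4.95 (without AstroEGFR 1) for the ratio to the list, which without PT 3 was 0.655, 13.3 to 36.3 for flanking peaks (without AstroEGFR 3 and 1) and 18636 to 53305 bp for their covered length (likewise). Without PT 1, PT 3 and PT 4 the covered length differed by 82, 2204.5 and 127.5 bp.

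Numbers 1 and 3 occur in both groups, but the labels do not say that they mark a shared origin. The paper describes independent astrocyte batches and the tumours that arose from them, and profiled H3K27me3 in these populations. It also reports that, by expression, each batch grouped with its own tumour. The labels do not state which batch gave PT 1, PT 3 or PT 4. The permutation tests took no account of such relations, which limits their p-values. Deviations from the group means over tiles of 21 kb correlated at 0.497 for number 1 and 0.594 for number 3, and these numbers coincide with the sets of lists. With 2 AstroEGFR lists the deviations of one are those of the other with the sign turned, so the 2 correlations are not independent. In each group the list numbered 3 was also the shortest. A shared origin was not tested. With the replicate block over the 2 pairs the differences were 127.5 bp in the window, -2.07 for its ratio, 25 flanking peaks and 33040.5 bp of flanks, which by construction equal those without PT 4. Read depth is unknown and limits each statement on a missing peak, above all in AstroEGFR 3.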
